A study of Rattus norvegicus with 16 samples.

Results

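The zinc finger protein genes that carry a Zfp symbol were followed in the frontal cortex of the rat. A gene belonged to the set when its symbol was Zfp followed by a number, with or without 1 lower-case letter, and when its mean over all 16 libraries was at least 1 FPKM, FPKM being fragments per kilobase of transcript scaled to library size. Of the 176 Zfp symbols in the table, 162 reached that level and 14 did not. Where a symbol stood at several loci, the locus with the highest mean was used. The 162 genes lie at 157 loci of a table of 28168, because 10 of them share a locus entry with another Zfp gene: Zfp524 with Zfp865, Zfp354c with Zfp879, Zfp64 with Zfp93, Zfp52 with Zfp53, and Zfp26 with Zfp426. Each such pair has a single value, which cannot be divided between its genes.

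Most Zfp genes encode proteins with C2H2 zinc fingers, small folds held by a zinc ion that read short stretches of DNA and, in some proteins, RNA. Many of the C2H2 proteins also carry a KRAB domain, which binds the co-repressor TRIM28 (KAP1). TRIM28 in turn brings the histone methyltransferase SETDB1, HP1 proteins and the deacetylase complex NuRD to the bound site, and this route keeps many transposable elements silent in mammals. Zfp36 is of a different kind and encodes a CCCH-type protein that binds AU-rich elements in mRNA. Zfp238, known in RefSeq as Zbtb18, encodes a repressor with a BTB domain, needed for cortical neuron development in mice.

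Male Sprague-Dawley rats, aged 11 weeks at the start, were fed for 7 weeks either chow (4 libraries, numbered 1 to 4) or a high-fat diet. High-fat animals were left uninjected (4 libraries, numbered 5 to 8), injected intraperitoneally with PBS vehicle over 10 days (4 libraries, numbered 1 to 4), or injected over 10 days with 5-AzaD, an inhibitor of DNA methylation, in PBS (4 libraries, numbered 3, 5, 6 and 7). No group combined injections with chow. The sample records do not state that each library is a different animal; the p-values below rest on the spread among the libraries, which may be technical. The titles use the letters HFD for the PBS-injected animals whereas the design text uses them for the diet alone; the groups here follow the treatment stated for each sample.

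Several libraries stood apart. The summed FPKM of 14 markers of striatal medium spiny neurons was 1435 in high-fat library 8 and 780, 857 and 1064 in PBS-injected libraries 2, 3 and 4, against 225 to 412 in the other 12 libraries. The 10 markers of cortical excitatory neurons, all above 0 in every library, summed to 2333 to 2517 FPKM in the chow group, 1620 to 3239 in the high-fat group, 583 to 1611 in the PBS group and 1372 to 1788 in the 5-AzaD group. The 14 oligodendrocyte markers summed to 12815 and 13819 FPKM in PBS libraries 3 and 4 and to 2385 to 7273 FPKM in the other 14 libraries. Results are also given without the 4 libraries high in striatal markers (the striatal-high libraries) and, a choice made after seeing the data, without 5-AzaD libraries 5 and 7, which stood apart in single excitatory markers (Neurod6 10.9 and 7.08 FPKM, elsewhere 13.5 to 50.7) but not in others (Slc17a7 499 and 460 FPKM, against 466 in 5-AzaD library 6) or in their sum (1788 and 1372 FPKM, against 1719 and 1691 in 5-AzaD libraries 3 and 6). Of other cell types, 4 of 9 microglial and 3 of 7 astrocyte markers tested rose in the injected libraries and none fell (44.4% and 42.9% called, against 40.8% of all loci), and their part in the results below was not tested. The records name no preparation or sequencing batch, so that injection and any such batch cannot be told apart.

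The Zfp genes were mostly of low abundance. Their median was 5.77 FPKM (quartiles 3.45 and 11.0), against 9.38 FPKM over the 14824 loci tested. 15 genes had a mean below 2 FPKM, 48 reached 10 FPKM and 6 reached 50 FPKM. The highest were Zfp365 with a mean of 109 FPKM, Zfp238 with 90.5, the shared locus of Zfp524 and Zfp865 with 87.7, Zfp706 with 71.9 and Zfp207, whose product stabilises BUB3 at kinetochores in dividing human cells, with 60.4. Zfp180 at 49.0 FPKM and Zfp637 at 48.9 followed. The 3 genes just inside the threshold of 1 FPKM were Zfp418 (1.14 FPKM), Zfp438 and Zfp786, and those just outside were Zfp518a (0.973 FPKM), Zfp167 (0.922) and Zfp978 (0.863). 6 of the 14 symbols below the threshold, Zfp260 among them, were listed at 0 in the table.

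The spread from library to library differed among the genes. The coefficient of variation over the 16 libraries had a median of 15.0% and was lowest for Zfp133, at 6.57%. It was highest for Zfp423 (75.4%), a partner of early B cell factors that commits precursors to the fat cell fate in mice, for Zfp521 (50.5%) and Zfp503 (46.5%), both of which act in striatal neuron development in mice, and for Zfp238 (45.1%). Zfp503 read 6.17 FPKM in high-fat library 8 and 3.40, 3.77 and 2.38 FPKM in PBS-injected libraries 2, 3 and 4, and between 1.47 and 2.59 FPKM in the other 12 libraries. Zfp521 was highest in PBS-injected library 3, at 4.40 FPKM, then in high-fat library 8, at 2.57, and in PBS-injected library 4, at 2.53. The 3 highest readings of each gene thus came from the 4 libraries with high striatal markers, and the part of those markers in them was not tested.

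**Figure D1:**
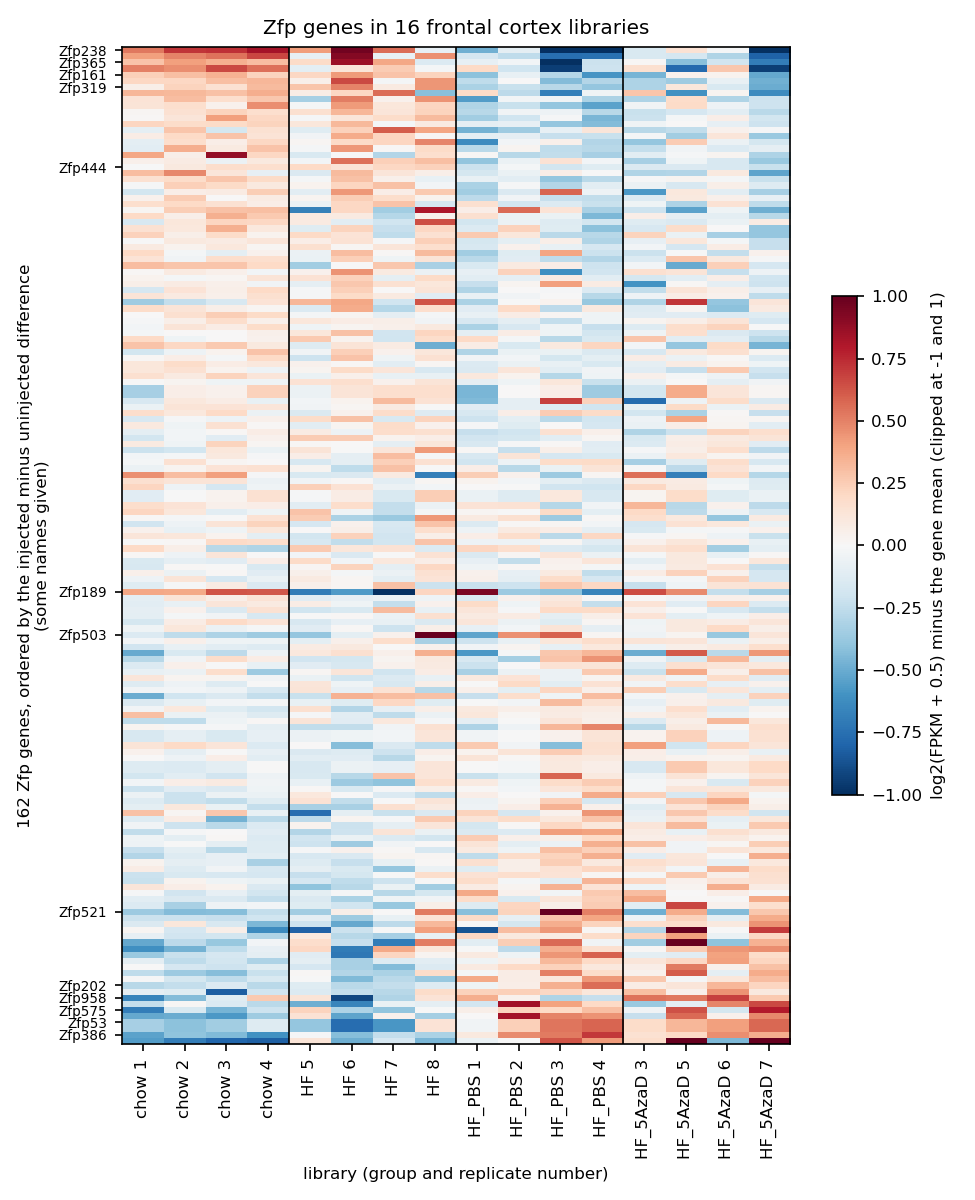
Each row is 1 of the 162 Zfp genes, ordered by the injected minus uninjected difference, and each column 1 of the 16 libraries; colour gives log2(FPKM + 0.5) minus the gene's mean over all libraries. The top rows, led by Zfp238, are red in most uninjected and blue in most injected libraries, the bottom rows show the opposite, and most rows between are pale.

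In the comparison of injected with uninjected animals, Zfp238 and Zfp148 fell by log2 1.17 and 0.84 in the injected libraries, Zfp386 rose by 0.74, and the shared locus of Zfp52 and Zfp53 rose by 0.70. Each gene's log2(FPKM + 0.5) was compared with limma between the 8 injected libraries (PBS and 5-AzaD groups averaged) and the 8 uninjected ones (chow and high-fat averaged), and a gene was called at a Benjamini-Hochberg adjusted p under 0.05 over all 14824 loci. 28 Zfp genes rose and 25 fell, together 53 genes at 52 loci, or 32.7% of the set against 40.8% of all loci. By direction these were 17.3% higher against 19.7% of all loci, and 15.4% lower against 21%. With every library shifted to the same median the split was 39 higher and 20 lower, and that of all loci turned the same way, from 2926 higher and 3115 lower to 3505 and 2730.

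The differences of the Zfp genes were small beside those of all loci. The median absolute log2 difference was 0.15 in the set and 0.25 over all loci, and the interquartile range 0.31 against 0.51. The median signed difference was -0.02, and 76 of the 162 values were positive. Among the 48 genes with at least 10 FPKM 24 were called, 11 higher and 13 lower, which is 50% against 46.4% of loci at that level; of the 83 genes from 3 to 10 FPKM 25.3% were called against 39.3%, and of the 31 genes from 1 to 3 FPKM 25.8% against 30.0%. Of the 53 called genes, 41 were called in every fit that left out 1 library, and none turned its sign there. Without the 4 libraries high in striatal markers 20 of the 53 were still called and all 53 kept their sign, while calls over all loci fell to 1062 higher and 1444 lower; without 5-AzaD libraries 5 and 7, 37 were still called and all 53 kept their sign.

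**Figure D2:**
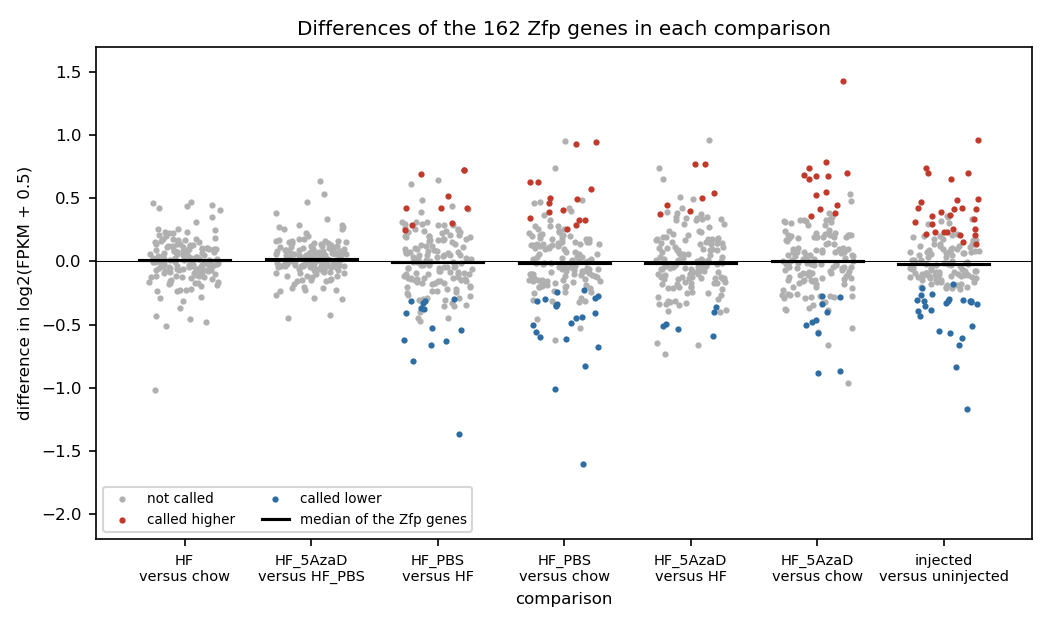
Each point is 1 of the 162 Zfp genes, placed by its difference in log2(FPKM + 0.5) between the 2 groups named below it; red points were called higher, blue points called lower, and the black line is the median of the set. No gene is coloured in the high-fat against chow or the 5-AzaD against PBS comparison, and Zfp238 is the lowest point in each comparison of injected with uninjected animals.

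The largest falls were those of Zfp238 and Zfp148. Zfp238 read 116, 131, 133 and 143 FPKM in the chow libraries, 107, 157, 118 and 75.8 in the high-fat libraries, 57.3, 74.9, 25.9 and 29.6 in the PBS-injected libraries and 72.0, 88.7, 79.5 and 38.7 in the 5-AzaD-injected libraries. All injected libraries lay below the chow group, while high-fat library 8 fell within the injected range. The means were 58.3 ± 24.2 FPKM injected and 123 ± 24.8 uninjected (SD, n = 8 each), a 2.25-fold lower level on the log2(FPKM + 0.5) scale (SE 0.23, adjusted p = 0.0016). It was called also without the striatal-high libraries (log2 -1.05, adjusted p = 0.017) and without 5-AzaD libraries 5 and 7 (-1.08, adjusted p = 0.0059). The lowest value, 25.9 FPKM, came from PBS-injected library 3, which also had the lowest sum of excitatory neuron markers, 583 FPKM. In the injected against uninjected contrast 4 of those 10 markers were lower (40%, against 21% of all loci called lower) and none higher, with a median log2 difference of -0.69 against 0.02 over all loci, and their part in the fall of Zfp238 was not tested. In these bulk samples fewer cells of a type and less RNA per cell cannot be told apart.

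Zfp148 encodes a factor that binds GC-rich promoter elements and can compete with Sp1. Its values were 14.4, 15.3, 15.9 and 17.4 FPKM in the chow, 10.1, 20.8, 10.2 and 14.9 in the high-fat, 9.51, 8.91, 6.16 and 6.21 in the PBS and 9.60, 9.50, 8.62 and 5.91 in the 5-AzaD group. Every injected library was below every uninjected one. The log2 difference was -0.84 (SE 0.15, adjusted p = 0.0011), and -0.65 with adjusted p = 0.059 without the striatal-high libraries. Zfp161, known in RefSeq as Zbtb14, a BTB domain repressor, was likewise lower in every injected library. It read 6.86, 7.17, 7.44 and 6.75 FPKM in the chow, 6.70, 7.88, 7.09 and 6.75 in the high-fat, 4.18, 5.43, 4.60 and 3.64 in the PBS and 4.01, 5.92, 5.88 and 3.88 in the 5-AzaD libraries (log2 -0.56, SE 0.10, adjusted p = 0.0008).

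Zfp444 and Zfp629 showed smaller falls with little spread. Zfp444 lay between 17.0 and 20.01 FPKM in the 8 uninjected and between 14.5 and 16.8 in the 8 injected libraries, so that the groups did not overlap (log2 -0.30, SE 0.05, adjusted p = 0.0004). Zfp629 lay between 4.36 and 5.54 FPKM uninjected and between 3.45 and 4.17 injected, again with no overlap (log2 -0.35, adjusted p = 0.001). Zfp281, whose product restrains pluripotency genes in mouse embryonic stem cells, fell from 7.69 ± 1.26 to 5.08 ± 0.657 FPKM (SD, n = 8 each; log2 -0.55, adjusted p = 0.0011), and Zfp319 from 5.47 ± 0.666 to 3.69 ± 0.562 FPKM (log2 -0.51, adjusted p = 0.0008). Zfp445, which helps to keep imprinted genes methylated in mouse embryos, fell by log2 0.33 (adjusted p = 0.0023; 0.058 without the striatal-high libraries), while Zfp57, which shares that role, showed no call (log2 -0.22, adjusted p = 0.21). In the whole set 9 genes, all called, had injected and uninjected libraries that did not overlap, against 7.97% of all loci; 5 were higher (2.92% of all loci) and 4 lower (5.05%), the lower ones being Zfp148, Zfp161, Zfp444 and Zfp629.

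Zfp365, a brain-enriched gene whose product binds DISC1, was the most abundant of the genes that fell. Its values were 127, 139, 133 and 129 FPKM in the chow, 119, 189, 136 and 94.6 in the high-fat, 98.3, 102, 50.9 and 89.9 in the PBS and 105, 78.1, 91.1 and 64.3 in the 5-AzaD group. High-fat library 8 again lay among the injected values, and the log2 difference was -0.66 (SE 0.16, adjusted p = 0.0055). Zfp385b fell by log2 0.61 (adjusted p = 0.018). Its value was 7.92 and 7.04 FPKM in 5-AzaD libraries 5 and 7 and 7.01 FPKM in PBS-injected library 3, against 12.1 to 22.3 FPKM in all others. The call was lost without 5-AzaD libraries 5 and 7 (log2 -0.34, adjusted p = 0.090) and without the striatal-high libraries (-0.38, adjusted p = 0.28).

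**Figure D3:**
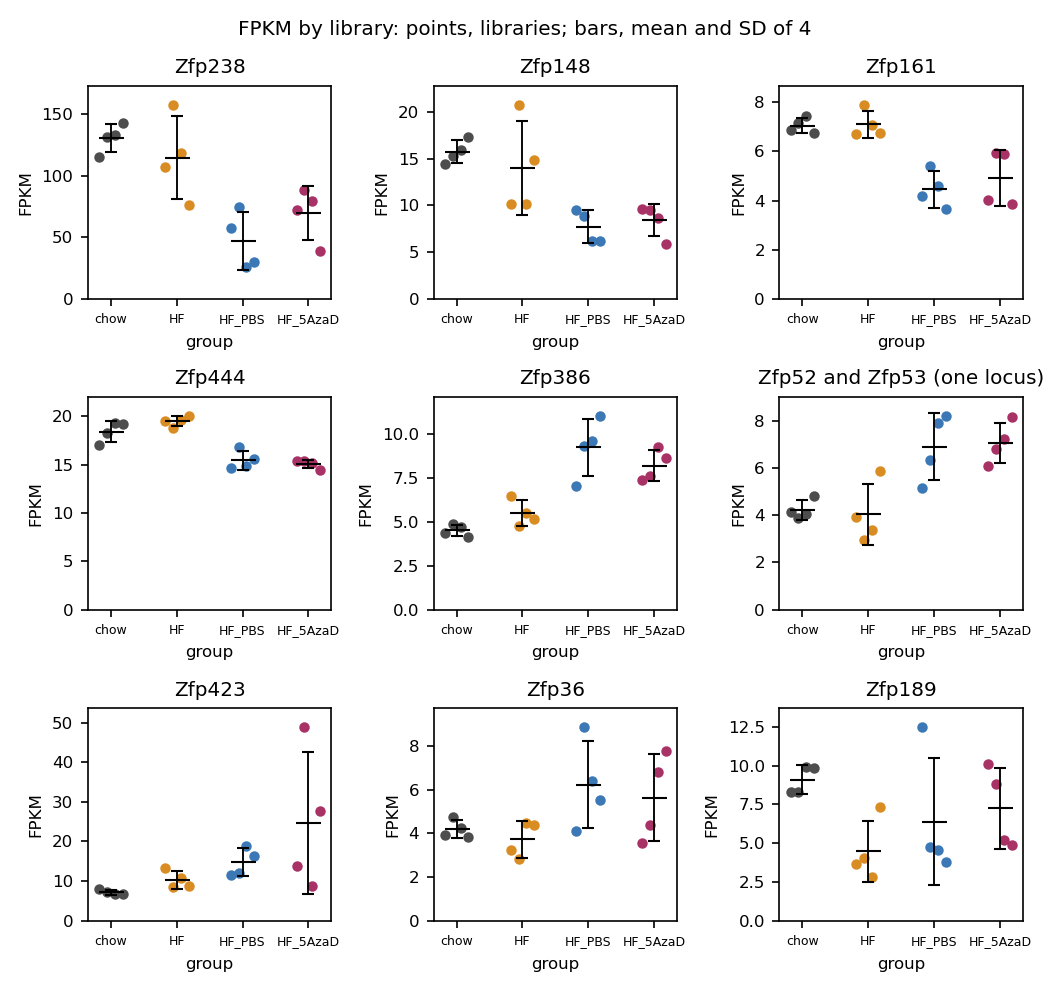
FPKM of 9 Zfp loci in the chow, high-fat (HF), PBS-injected (HF_PBS) and 5-AzaD-injected (HF_5AzaD) groups; each point is a library and each bar the mean and SD of 4 libraries, on linear axes from 0. Zfp148, Zfp161 and Zfp444 have all injected points below all uninjected ones, Zfp386 has them above, and Zfp189 is lower in all 4 high-fat than in all 4 chow libraries.

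Among the genes that rose, Zfp386 separated the groups most clearly. It read 4.38, 4.85, 4.68 and 4.13 FPKM in the chow, 6.48, 4.75, 5.48 and 5.18 in the high-fat, 7.06, 9.31, 9.59 and 11.0 in the PBS and 7.36, 7.58, 9.23 and 8.60 in the 5-AzaD libraries. All injected values exceeded all uninjected ones, the mean being 8.71 ± 1.33 against 4.99 ± 0.735 FPKM (SD, n = 8 each), and the difference, 1.67-fold on the log2(FPKM + 0.5) scale, had the lowest adjusted p of the set (SE 0.09, adjusted p = 0.00015). It stayed called without the striatal-high libraries (log2 0.56, adjusted p = 0.014). The shared locus of Zfp52 and Zfp53 read 4.12, 3.86, 4.06 and 4.82 FPKM in the chow, 3.94, 2.93, 3.37 and 5.88 in the high-fat, 5.16, 6.33, 7.91 and 8.19 in the PBS and 6.10, 6.82, 7.22 and 8.15 in the 5-AzaD libraries (log2 0.70, SE 0.13, adjusted p = 0.0009). High-fat library 8 exceeded PBS-injected library 1, and otherwise the injected libraries were the higher ones.

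4 further genes rose with no overlap between injected and uninjected libraries. Zfp202 went from 1.32 ± 0.0864 to 1.95 ± 0.344 FPKM, Zfp354a from 1.95 ± 0.224 to 2.72 ± 0.369, Zfp347 from 1.87 ± 0.156 to 2.57 ± 0.307 and Zfp51 from 4.68 ± 0.253 to 5.49 ± 0.333 (SD, n = 8 each). Their log2 differences were 0.42, 0.39, 0.37 and 0.21, with adjusted p of 0.0035, 0.0029, 0.0026 and 0.0067. Without the striatal-high libraries Zfp51 alone of these 4 was still called (adjusted p = 0.036), and the adjusted p of the others were 0.087, 0.062 and 0.083. Among the more abundant genes Zfp706 rose from 63.5 ± 6.59 to 80.3 ± 7.74 FPKM (log2 0.34, adjusted p = 0.0038), Zfp330 from 20.8 ± 2.33 to 27.9 ± 3.19 (log2 0.42, adjusted p = 0.0015) and Zfp637 from 44.8 ± 3.47 to 52.95 ± 5.21 (log2 0.24, adjusted p = 0.015), and these 3 were called under both left-out sets too. Zfp575 rose from 12.1 ± 2.51 to 17.4 ± 4.24 FPKM (log2 0.50, adjusted p = 0.014), a call lost without 5-AzaD libraries 5 and 7 (0.29, adjusted p = 0.072) and without the striatal-high libraries (adjusted p = 0.18).

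Zfp423 had the largest rise, but an uneven one. Its values were 8.05, 7.29, 6.75 and 6.62 FPKM in the chow, 13.3, 8.44, 10.7 and 8.66 in the high-fat, 11.5, 12.1, 18.9 and 16.3 in the PBS and 13.7, 48.8, 8.68 and 27.7 in the 5-AzaD group. The readings of 48.8 and 27.7 FPKM were those of 5-AzaD libraries 5 and 7. The log2 difference was 0.96 (SE 0.27, adjusted p = 0.011) with them and 0.53 (adjusted p = 0.018) without them, and the call was lost without the striatal-high libraries (0.77, adjusted p = 0.20).

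Zfp36 encodes tristetraprolin, which speeds the decay of mRNAs with AU-rich elements and is itself an immediate early gene. It read 3.95, 4.77, 4.27 and 3.83 FPKM in the chow, 3.23, 2.81, 4.50 and 4.41 in the high-fat, 4.12, 8.87, 6.40 and 5.52 in the PBS and 3.55, 4.40, 6.82 and 7.78 in the 5-AzaD group, and rose by log2 0.49 (SE 0.17, adjusted p = 0.033). Only 5 of the 8 injected libraries exceeded every uninjected one, and the call ended when any of 9 single libraries was left out (chow 1, 3 and 4, high-fat 5 and 6, PBS 2 and 3, 5-AzaD 6 and 7), with adjusted p up to 0.071. The log2 difference was 0.28 (adjusted p = 0.38) without the striatal-high libraries and 0.43 (adjusted p = 0.087) without 5-AzaD libraries 5 and 7. Its paralog Zfp36l1 fell (log2 -0.38, adjusted p = 0.042). Of the 21 immediate early genes tested, Btg2, an anti-proliferative gene, rose (log2 0.80), and Egr3 and Fosl2, which encode transcription factors, fell (-0.87 and -1.08), so that 14.3% were called against 40.8% of all loci.

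The promoters of 3 of these genes are shown. Zfp238 was chosen for the largest fall and Zfp386 for the lowest adjusted p among the genes that rose. Zfp36 was chosen for a sequence match to the CArG box, through which serum response factor acts on immediate early genes. Binding at this match was not tested. Each runs 5′ to 3′ from 250 bases before to 50 bases after the RefSeq start (build GRCr8). Capitals mark the Sp1/KLF box, GGGCGG on either strand, and in Zfp36 also the CArG box, which shares a base with one of its Sp1/KLF boxes. The Zfp238 window is chr13:91971352-91971651 (plus strand), that of Zfp386 chr6:143109358-143109657 (plus strand) and that of Zfp36 chr1:92799059-92799358 (minus strand).
Zfp238: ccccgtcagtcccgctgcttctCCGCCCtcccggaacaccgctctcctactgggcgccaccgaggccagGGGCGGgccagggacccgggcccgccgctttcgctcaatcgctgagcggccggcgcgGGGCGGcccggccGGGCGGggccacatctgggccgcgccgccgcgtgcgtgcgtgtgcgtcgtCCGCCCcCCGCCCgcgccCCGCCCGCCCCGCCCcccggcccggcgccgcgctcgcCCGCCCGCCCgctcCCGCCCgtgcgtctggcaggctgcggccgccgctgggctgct
Zfp386: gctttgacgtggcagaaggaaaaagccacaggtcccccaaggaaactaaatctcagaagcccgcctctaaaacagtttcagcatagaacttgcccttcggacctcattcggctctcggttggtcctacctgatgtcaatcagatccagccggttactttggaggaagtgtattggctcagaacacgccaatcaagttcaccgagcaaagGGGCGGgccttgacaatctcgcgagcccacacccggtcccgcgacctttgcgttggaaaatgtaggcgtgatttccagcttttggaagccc
Zfp36: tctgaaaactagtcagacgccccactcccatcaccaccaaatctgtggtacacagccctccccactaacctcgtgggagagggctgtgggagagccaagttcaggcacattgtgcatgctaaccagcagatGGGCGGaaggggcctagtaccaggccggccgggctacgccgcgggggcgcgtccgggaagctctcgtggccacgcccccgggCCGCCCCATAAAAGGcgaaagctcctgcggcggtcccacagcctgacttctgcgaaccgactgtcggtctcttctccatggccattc
The Zfp238 window is 83.3% G and C, with 52 CG dinucleotides and 12 boxes; the Zfp386 window has 16 CG dinucleotides and 1 box, and that of Zfp36 has 21 and 2 boxes.

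A promoter was found for 132 of the 162 genes, 155 having matched RefSeq by symbol and 7 by an older symbol. The Sp1/KLF box stood in 6 of the 23 promoters of genes that rose (26.1%), in 12 of the 21 of genes that fell (57.1%), in 49.2% of the set and in 63.1% of the 8691 promoters of all genes tested. CG dinucleotides did not follow the same order, with a median of 5.67 per 100 bases in the promoters of both the risers and the fallers, 6 in the set and 7 over all genes tested. The ETS motif CCGGAAG, on either strand, stood in 22.0% of the set and 17.4% of all promoters tested, and the ZNF143 motif ACTACAATT in 2.27% and 0.78%. The CArG box was in 2 of the 132 promoters, or 1.52%, against 1.21%. These shares are descriptions, since the genes that rose and fell were not compared by a test.

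Some Zfp genes lie beside each other in the genome. With steps of at most 6 genes from one Zfp gene to the next, 40 of the 161 placed genes fell into 10 clusters of 3 or more. In the cluster of Zfp51, Zfp52 and Zfp53 all 3 genes were higher in injected libraries, where 19.7% of all loci were called higher. Zfp52 and Zfp53 were so through their shared locus. In the cluster of Zfp786, Zfp398, Zfp282, Zfp956, Zfp777, Zfp746 and Zfp467, 3 of 7 genes fell, where 21% of all loci fell, with a cluster median of -0.20; Zfp398 showed the largest fall (log2 -0.39, adjusted p = 0.0046; 0.092 without the striatal-high libraries). No gene was called in the clusters that hold Zfp354c, Zfp397, Zfp799 and Zfp26. Each remaining cluster had at most 1 called gene per direction. Of 16 pairs of adjacent Zfp genes 10 differed in the same direction (62.5%), against 53.1% of 5987 adjacent pairs over all genes tested.

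For 11 symbols a further locus also exceeded 1 FPKM, and some of these loci did not move like the first. Zfp9 rose at its main locus, from 1.12 ± 0.33 to 2.08 ± 0.609 FPKM (SD, n = 8 each; log2 0.66, adjusted p = 0.0039), and fell at the other (log2 -0.59, adjusted p = 0.026). Without the striatal-high libraries the main locus differed by log2 0.41 (adjusted p = 0.18). At that second locus the injected libraries read 0.465 to 1.63 FPKM and the uninjected ones 0.954 to 2.46. Zfp316 was not called at its main locus (log2 -0.11, adjusted p = 0.090), while its second locus fell with no overlap, from 2.41 to 3.44 FPKM uninjected to 0.974 to 1.98 FPKM injected (log2 -0.85, adjusted p = 0.00029). Zfp37 likewise was not called at its main locus (0.18, adjusted p = 0.25) and fell at its second (-0.72, adjusted p = 0.0008), whereas Zfp161 fell at the main locus alone (second locus -0.08, adjusted p = 0.56). Zfp958 and Zfp51 rose at both, by 0.47 and 1.37 and by 0.21 and 0.56; the main locus of Zfp958 lost its call when any of 10 single libraries was left out (chow 1 to 3, high-fat 6 and 7, PBS 1 and 2, 5-AzaD 3, 5 and 6; adjusted p up to 0.079). Whether such loci are parts of 1 gene or similar copies was not tested.

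**Figure D4:**
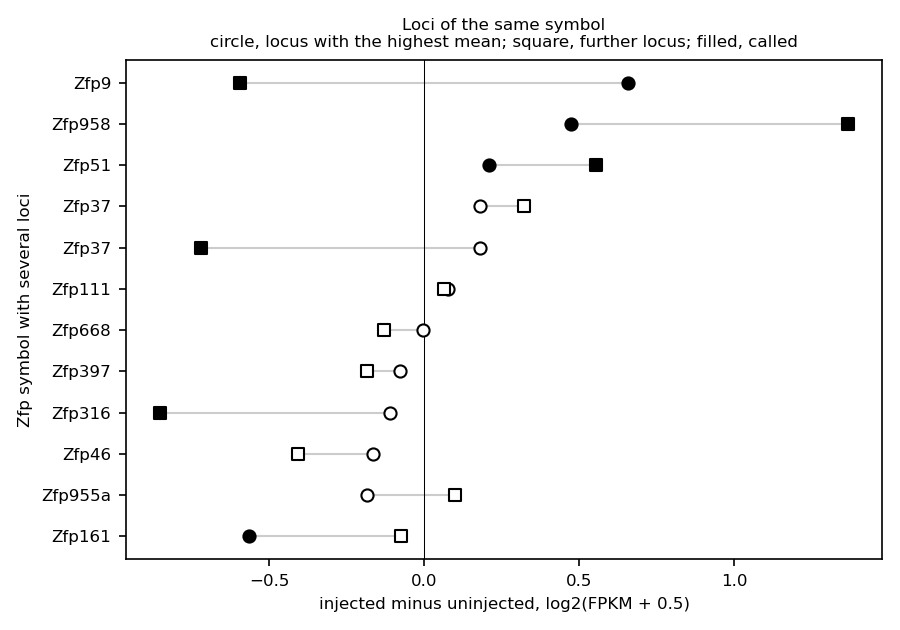
Injected minus uninjected difference in log2(FPKM + 0.5) for the 11 Zfp symbols with more than 1 locus above 1 FPKM; circles are the locus with the highest mean, squares a further locus, filled symbols those called, and a grey line joins the loci of a symbol (Zfp37 has 2 lines). Zfp9 has a called circle above 0 and a called square below it.

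Several well-studied members were not called between injected and uninjected animals. Zfp189, which acts in stress resilience in the mouse prefrontal cortex, differed by log2 0.02 (adjusted p = 0.96). Zfp191, known in RefSeq as Zfp24 and needed for myelination in mice, differed by -0.15 (adjusted p = 0.24). Zfp91, Zfp207, Zfp410, which activates Chd4, Zfp451, a SUMO ligase, and Zfp598, a ubiquitin ligase for stalled ribosomes, had log2 differences of -0.11, 0.10, -0.09, 0.17 and -0.09 and adjusted p from 0.11 to 0.45. Zfp143, Zfp292, Zfp384, Zfp385a, Zfp467, Zfp503, Zfp521, Zfp609, Zfp622 and Zfp746 were not called either, with log2 differences from -0.18 to 0.33, whereas Zfp422 rose (log2 0.22, adjusted p = 0.015; 0.082 without the striatal-high libraries and 0.060 without 5-AzaD libraries 5 and 7).

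The 4 comparisons of an injected with an uninjected group share their samples, and their calls are listed side by side only. PBS against high-fat gave 10 Zfp genes higher and 14 lower (14.8% against 23.9% of all loci, of which 10.7% higher and 13.2% lower), or 17 and 11 after shifting library medians (all loci 2003 and 1649). PBS against chow gave 15 and 21 (22.2% against 28.2%, 12.4% higher and 15.7% lower), or 21 and 16 after the shift (all loci 2383 and 2020). 5-AzaD against high-fat gave 7 and 6 (8.02% against 14.2%, 6.61% higher and 7.64% lower), or 12 and 6 (all loci 1153 and 1020), and 5-AzaD against chow 14 and 10 (14.8% against 16.3%, 7.18% higher and 9.11% lower), or 22 and 8 (all loci 1254 and 1153). 8 genes (4.94%, against 7.21% of all loci) were called in all 4 comparisons: Zfp386, Zfp52 and Zfp53 higher, and Zfp161, Zfp281, Zfp319, Zfp444 and Zfp629 lower. A further 4 (2.47%, against 5.3% of all loci) were called in 3 of them (Zfp202, Zfp330 and Zfp347 higher, Zfp148 lower), and 114 genes (70.4%, against 61.8%) in none.

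These pairwise counts depended on single libraries. PBS against high-fat fell from 24 calls to 12 without high-fat library 6 and to 13 without PBS library 4, and PBS against chow from 36 to 18, 15 and 15 without chow libraries 2, 3 and 4 and to 19 and 11 without PBS libraries 3 and 4. 5-AzaD against high-fat fell from 13 to 1 without high-fat library 6 or 5-AzaD library 7. 5-AzaD against chow fell from 24 to 9, 4, 1 and 5 without chow libraries 1 to 4. It fell to 13 and 1 without 5-AzaD libraries 5 and 7. Calls over all loci fell too. Without high-fat library 6, PBS against high-fat went from 1580 higher and 1956 lower to 643 and 990. Under the same omission 5-AzaD against high-fat went from 980 and 1132 to 150 and 245. PBS against chow went from 1842 and 2331 to 718 and 1295 without PBS library 4. It went to 1184 and 1681, 1087 and 1619, and 1031 and 1599 without chow libraries 2, 3 and 4. 5-AzaD against chow went from 1064 and 1350 to 551 and 740 without chow library 1 and to 366 and 497 without chow library 2. It went to 287 and 410 without chow library 3 and to 320 and 385 without chow library 4. Without the striatal-high libraries, which leaves PBS library 1 alone in its group and assumes that it varies like the other groups, both PBS comparisons had 0 calls in the set and 0 and 2 over all loci, so that the set's loss says nothing of its stability. Without 5-AzaD libraries 5 and 7 the 5-AzaD comparisons had 2 against high-fat and 0 against chow. Only 5-AzaD libraries 3 and 6 then remain in that group. The loss over all loci is not given for that fit, so these counts do not speak of the set alone. The 28 and 25 calls of the pooled contrast ranged from 23 to 33 and from 18 to 27 when single libraries were left out. Over all loci its 2926 higher and 3115 lower became 2319 and 2635 without high-fat library 6. They became 3101 and 3138 without PBS library 2.

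The question of diet alone was asked by comparing the uninjected high-fat with the chow group. No Zfp gene was called, as was the case for 0% of all 14824 loci, by limma at an adjusted p under 0.05; 10 of the 162 (6.17%) had an unadjusted p under 0.05, against 6.88% of all loci. Zfp189 had the lowest p. It read 8.31, 8.28, 9.90 and 9.86 FPKM in the chow and 3.65, 4.06, 2.81 and 7.33 in the high-fat libraries. The groups did not overlap, but the log2 difference of -1.02 (SE 0.34) had an adjusted p of 0.68. Among high-fat animals that were injected Zfp189 was spread widely, with 12.5, 4.76, 4.57 and 3.76 FPKM in the PBS and 10.1, 8.84, 5.21 and 4.87 FPKM in the 5-AzaD libraries. The next lowest p belonged to Zfp157 (log2 -0.45) and Zfp110 (-0.29) among the lower values and to Zfp39 (0.45), Zfp259 (0.18) and Zfp40 (0.22) among the higher, all with adjusted p from 0.68 to 0.70. In all, 12 Zfp genes had groups that did not overlap, where 6.95% of all loci did; 6 were higher (2.98% of all loci) and 6 lower (3.97%). The median log2 difference of the set was 0.0076, and 84 of 162 values were positive.

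The effect of 5-AzaD beyond its vehicle was asked by comparing both injected groups. Again no Zfp gene was called, against 0% of all loci by limma; 6 (3.70%) had an unadjusted p under 0.05, against 7.42% of all loci. Zfp609, whose product works with the cohesin loader NIPBL, had the lowest p: it read 6.29, 7.06, 6.36 and 6.20 FPKM in the PBS and 6.97, 9.43, 8.25 and 7.62 FPKM in the 5-AzaD group. The groups overlapped in 1 library each, and the log2 difference of 0.29 (SE 0.10) had an adjusted p of 0.59. Zfp282 (0.25) and Zfp398 (0.33) followed among the higher values and Zfp410 (-0.27), Zfp191 (-0.29) and Zfp68 (-0.15) among the lower, with adjusted p from 0.61 to 0.73. 4 Zfp genes had groups that did not overlap, where 2.4% of all loci did; 3 were higher (1.46% of all loci) and 1 lower (0.938%). For Zfp238 the log2 difference was 0.64 with a 95% confidence interval from -0.06 to 1.34, and for Zfp386 -0.15 with an interval from -0.42 to 0.12.

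The partners through which KRAB zinc finger proteins act were read from a list of 32 symbols, of which 23 were tested. In injected animals 7 of them rose and 5 fell (52.2% called against 40.8% of all loci), with a median log2 difference of 0.10 against 0.02 over all loci, and none was called for diet or for 5-AzaD against PBS. Trim28, the common co-repressor, was not called, with 36.3 ± 1.71 FPKM injected and 37.4 ± 1.23 uninjected (SD, n = 8 each; adjusted p = 0.45), nor was Setdb1 (log2 0.07). Among the risers were the HP1 gene Cbx3 (log2 0.42), Hdac1 (0.48) and the further NuRD genes Mta1 (0.44) and Mbd2 (0.22). The remodeller gene Smarcad1 (0.43) and Sumo2 (0.78) rose too. Not called were the NuRD genes Hdac2 (log2 0.21), Mta2 (-0.11) and Mbd3 (-0.04) and the HP1 gene Cbx5 (0.11). The genes that fell were Dnmt1 and Dnmt3a (-0.23 and -0.26), which encode DNA methyltransferases, Mbd1 (-0.37), Morc2 (-0.25) and Uhrf1 (-0.71), whose locus is shared with Fem1a.

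Zinc finger genes with other names gave these counts in the same contrast, in which 40.8% of all loci were called. The Zbtb genes, which encode BTB domain proteins, number 31 at 30 loci, as Zbtb6 and Zbtb26 share 1. Of the 30 loci 12 fell and none rose (40% called, where 21% of all loci fell). Their median log2 difference was -0.15, against -0.02 in the Zfp set. Of 13 Klf genes, whose products bind GC boxes, Klf2 rose (log2 0.99) and 3 fell, Klf13 by 0.67 (30.8% called). Of 12 Zc3h genes, which encode CCCH proteins, 4 rose and 4 fell, and of 3 Zkscan genes 2 fell (66.7% called in each). None of these genes was called for diet or for 5-AzaD against PBS.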

How the data were processed

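Poly-A RNA sequencing of rat frontal cortex was deposited by the authors as 1 table of FPKM values per locus. Per the submitters' processing notes the tools were TopHat, TopHat2, Bowtie, Bowtie2, Cufflinks and Cuffdiff and the build was rn5; their order, settings and the strand setting are not given in the sources used here. Reads of overlapping, antisense or closely similar zinc finger genes may therefore have been assigned to either. All 16 value columns map to a sample by title; 0 columns lie outside the series. FPKM holds no read totals. Relative depth, estimated from the smallest steps of rare loci, ran from 29.1% to 100% of the deepest library (chow 2), and 23064 to 24333 loci were above 0 in each library.

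Loci with status OK in all samples and a mean of at least 1 FPKM were tested (14824 of 28168). limma 3.58.1 in R 4.3.3, with an intensity trend, was fitted on log2(FPKM + 0.5) with 1 mean per group and 12 residual degrees of freedom. The pseudocount understates differences of low genes. Benjamini-Hochberg adjustment ran over all tested loci; called means adjusted p under 0.05. Besides the 6 pairs of groups, injected was compared with uninjected. The fit was tested on simulated data. Genes named were those with the largest called differences or groups that did not overlap, the lowest p where none was called, the highest and lowest means, those with several loci, and 36 well-studied Zfp genes, 27 of them in the set. The members and lists were chosen with earlier results of these data known. Promoters came from RefSeq (GRCr8). No protein sequences were used here, so a grouping by finger type was not made. Alternatives were other pseudocounts, no filter, 2 groups only, shifted medians, a replicate block and each library left out; keeping loci of any status and leaving out libraries by markers were added after seeing the data.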

Additional observations from a re-analysis of the deposited data

Results flagged for a closer look

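In each group of 4, a library was looked at again where its gap to the nearest value was, as a share of the group's range, above Dixon's critical value. Of 224 groups of values (56 of the named genes in 4 groups) 9 met this, and chance alone marks about 1 group in 20. Zfp189 was 12.5 FPKM in PBS-injected library 1, against 3.76 to 4.76 FPKM in the others of its group. Zfp503 was 6.17 FPKM in high-fat library 8, against 1.67 to 2.43 FPKM; that library also held the highest sum of striatal markers. Zfp524, at the locus shared with Zfp865, was 95.1 FPKM in the same library, against 83.9 to 85.8 FPKM. Zfp39 was 1.41 FPKM in high-fat library 5, against 2.23 to 2.33, and Zfp347 was 1.65 FPKM in high-fat library 6, against 1.96 to 2.00. In the chow group Zfp207 was 74.2 FPKM in library 1, against 54.9 to 57.8, and Zfp746 was 5.89 FPKM there, against 6.79 to 6.88. Zfp451 was 8.15 FPKM in chow library 2, against 9.07 to 9.12 FPKM. Zfp622 was 3.84 FPKM in 5-AzaD library 6, against 5.54 to 5.87 FPKM.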

How the results depend on the processing

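Of the 68 differences of named genes that were followed, 1 turned its sign: Zfp191 in 5-AzaD against PBS, -0.29, became 0.0081 without the 4 striatal-high libraries, a value set against PBS library 1 alone. Both comparisons with 0 calls, high-fat against chow and 5-AzaD against PBS, kept 0 under every alternative run, and ranged from 0 to 0 with single libraries left out. PBS against high-fat had 7 calls with only those 2 groups in the fit. Calls over all loci then went from 1580 higher and 1956 lower to 560 and 873. The count of the set ranged from 12 to 31 with single libraries left out. PBS against chow had 0 without the striatal-high libraries and ranged from 11 to 36. 5-AzaD against high-fat had 0 with only those 2 groups, while all-locus calls went from 980 higher and 1132 lower to 10 and 17. That comparison had 2 without 5-AzaD libraries 5 and 7, and ranged from 1 to 16. 5-AzaD against chow had 11 with no filter on low means, where 897 of 25273 loci were higher and 1043 lower. The main fit had 1064 higher and 1350 lower of 14824. The same comparison had 0 in the set without 5-AzaD libraries 5 and 7, and ranged from 1 to 27. In the pooled contrast 10 genes were higher and 11 lower without the striatal-high libraries, and the counts ranged from 23 to 33 and from 18 to 27. Libraries with the same replicate number did not pair: their correlations were -0.16 to 0.024 between chow and PBS and -0.11 to 0.064 between high-fat and 5-AzaD, and no library correlated best with its own number. With a replicate block PBS against chow had 14 calls. 5-AzaD against high-fat had 0, in a fit on libraries 5, 6 and 7 of each group, the only numbers shared. The block and the loss of libraries cannot be told apart in that 0, and all-locus counts are not given for these fits. The cause of these moves was not tested, beyond the fewer samples in the fits that leave libraries out. Pseudocounts of 0.1 and 1 ended 2 of the 68 each. Leaving out 5-AzaD libraries 5 and 7 ended 22 of the 68, and no filter on low means ended 11. Fits of only the 2 groups compared ended 21 of 59, and the replicate block ended 15 of 23. The injected libraries number 8, and FPKM without read totals gives no counting error for low genes.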
